A study of Mus musculus with 15 samples.

Results

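The 6 genes described are Duox2, Duoxa2, Duox1, Nos2, Nox1 and Noxo1, the epithelial oxidant enzymes and their partners. They were chosen by symbol, as the rows of the deposited table whose only gene symbol is a member's, from 19938 genes with a symbol on the array. Each member had 1 transcript cluster, which is 1 probe set summarised to 1 value per array. Transcripts were measured with Affymetrix Mouse Gene 1.0 arrays in epithelial cells isolated from adult mouse small intestine, on 15 arrays in 5 groups of n = 3. Wild-type CD1 mice gave 1 ileal and 1 jejunal group. Gata4 cKI (conditional knockin) mice and mice labelled control gave ileum, and Gata4 cKO (conditional knockout) mice gave jejunum. The control genotype, the Cre driver, the exons removed and the ages beyond adult are not given in the sources used here. No jejunal control of the cKO set is labelled, so its arrays are compared with those of wild-type CD1 mice.

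DUOX2 and DUOX1 are membrane NADPH oxidases that release hydrogen peroxide at the apical face of an epithelial cell. Each needs a maturation factor of its own to leave the endoplasmic reticulum, and DUOXA2 serves DUOX2. NOX1 makes superoxide and needs the organizer NOXO1, the activator NOXA1 and the shared subunit p22phox, which Cyba encodes. NOS2, the inducible nitric oxide synthase, makes nitric oxide from arginine. In the gut these enzymes act in defence at the surface that faces microbes, and Duox2 and Nos2 are known to be induced by microbial and cytokine signals.

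Duox2 and Duoxa2 lie next to each other and are read in opposite directions, with 673 bases between their RefSeq starts. Duoxa1 and Duox1 follow as the next protein-coding genes. Promoters of 5 members were found in the RefSeq table of build GRCm38.p6, all but that of Nos2. The 250 bases before the start are shown for the Duox2 and Duoxa2 genes, whose values moved together, and for Nox1, which held the most matches to the GATA words searched. Each sequence is written 5′ to 3′ on the strand of its gene, with capitals marking a GATA word in Nox1 and TATAAA in Duoxa2.

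Duox2 (chr2:122298228-122298477, minus strand): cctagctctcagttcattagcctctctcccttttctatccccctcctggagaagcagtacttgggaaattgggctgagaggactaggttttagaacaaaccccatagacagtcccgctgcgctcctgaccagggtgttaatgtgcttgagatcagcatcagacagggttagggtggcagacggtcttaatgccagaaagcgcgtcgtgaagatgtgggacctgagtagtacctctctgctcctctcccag
Duoxa2 (chr2:122298650-122298899, plus strand): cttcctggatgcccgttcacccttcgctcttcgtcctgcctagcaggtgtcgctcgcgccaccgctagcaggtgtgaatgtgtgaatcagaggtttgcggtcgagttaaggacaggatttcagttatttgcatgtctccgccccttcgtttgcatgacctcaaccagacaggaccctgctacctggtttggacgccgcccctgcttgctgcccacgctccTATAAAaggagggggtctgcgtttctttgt
Nox1 (chrX:134111855-134112104, minus strand): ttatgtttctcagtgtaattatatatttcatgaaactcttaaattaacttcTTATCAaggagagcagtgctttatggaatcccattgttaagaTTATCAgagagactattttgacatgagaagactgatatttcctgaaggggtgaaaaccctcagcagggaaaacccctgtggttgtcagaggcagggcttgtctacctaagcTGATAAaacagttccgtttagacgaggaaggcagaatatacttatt

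The GATA words searched on both strands were AGATAA and AGATAG, as well as TGATAA and TGATAG. Nox1 held 3 of them, starting 199, 157 and 46 bases before the start, and Duox1 held 1, at 76 bases. Duox2, Duoxa2 and Noxo1 held none in this window. Of all 32851 promoters of this length in the table, 26.5% held at least 1 such word. TATAAA, searched on the strand of the gene, lay 30 bases before the start of Duoxa2 and is found in 7.59% of all promoters. TTCNNNGAA, a word bound by STAT factors, was in none of the 5 members and in 7.02% of all promoters. These matches describe letters and are not shown to be bound sites.

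Gata4, the targeted gene, was at 5.99, 5.43 and 5.39 in the wild-type ileum and at 9.68, 9.45 and 9.47 in the wild-type jejunum (all values are log2). In the control ileum it was at 6.71, 7.22 and 6.53, and in the cKI ileum at 8.02, 8.43 and 8.17, so the cKI arrays were all higher. The arrays labelled cKO jejunum were at 9.72, 9.88 and 9.93, which is not below the wild-type jejunum (difference 0.31 ± 0.185 SE, adjusted p = 0.322). The Gata4 value thus does not check the knockout label. It is 1 value over the probes of transcript cluster 10420747, and whether those probes lie in the deleted part is not given in the sources used here. Fabp6, an ileal bile acid carrier, was at 4.08 to 4.93 in the wild-type jejunum and at 12.46 to 12.88 on the arrays labelled cKO. Not every regional marker moved as far. Lct and Fabp1 had means of 7.6 and 8.52 on the arrays labelled cKO. These lay between the wild-type ileum (4.72 and 3.76) and the wild-type jejunum (11.86 and 11.95). All 12 epithelial markers, Epcam, Cdh1 and Vil1 among them, were above the level filter in every group. Array medians ran from 4.82 to 5.0.

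Differences were tested with limma, and a gene is called where its Benjamini-Hochberg adjusted p, taken over 11784 genes, is below 0.05. Genes entered the test if at least 1 group had a mean over 4.91, which is the median of the whole table (the level filter). Of the 6 members 5 were tested, and those 5 had a mean above 4.91 in all 5 groups. Duox1 was not tested. The labels do not say whether arrays of a group stem from different mice, so each p-value reflects the spread among these arrays, which may be technical. In such bulk samples fewer cells of a type and less RNA per cell cannot be told apart.

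Duox2, Duoxa2, Nos2, Nox1 and Noxo1 were all lower in the wild-type jejunum than in the wild-type ileum. The comparison asks how the regions differ where Gata4 is unmodified. The differences were large for the DUOX2 system and Nos2 (11-fold or more on the arrays labelled cKO as well), intermediate and variable for Nox1, and small for Noxo1. All 5 tested members were called lower in the jejunum, where 7.91% of all genes tested were lower and 21.3% were called in either direction. Their median difference was -3.75, beside 0 over all genes tested.

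Duox2 was at 10.73, 10.66 and 10.6 in the wild-type ileum and at 5.52, 7.19 and 7.1 in the wild-type jejunum. The groups did not overlap, and the jejunum was lower by a difference of -4.06 ± 0.392 (16.7-fold, adjusted p = 2.94e-06). Duoxa2 was at 9.45, 9.72 and 9.47 in the ileum and at 4.8, 5.39 and 5.33 in the jejunum. The jejunal Duoxa2 values lay close to the level filter, with a difference of -4.37 ± 0.462 (20.7-fold, adjusted p = 7.28e-06). In both genes replicate 1 was the lowest jejunal array. By size among all genes lower in the jejunum, Duoxa2 ranked 10 and Duox2 ranked 13.

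Duox1 stayed below the level filter on every array of the study. Its lowest value was 3.18 and its highest 4.16. Group means ran from 3.41 ± 0.13 (SD, n = 3) in the wild-type jejunum to 3.96 ± 0.15 in the control ileum. Duoxa1, the maturation factor of Duox1, was also below the filter, at 4.35 to 4.89 over the 15 arrays. With no filter on low values, none of the 6 differences of Duox1 was called (adjusted p from 0.0796 to 0.964).

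Nos2 was at 9.5, 9.1 and 9.03 in the wild-type ileum and at 4.93, 5.49 and 5.95 in the wild-type jejunum. The groups did not overlap, with a difference of -3.75 ± 0.36 (13.5-fold, adjusted p = 2.81e-06), which ranked 16 among genes lower in the jejunum. Nos1 and Nos3, the neuronal and endothelial synthases, were not tested, with values of 3.95 to 4.58 and 3.96 to 4.9. Of the 3 synthase genes, Nos2 was thus the only one above the filter in any group mean.

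Nox1 was at 7.6, 8.26 and 7.97 in the wild-type ileum and at 3.62, 6.39 and 6.91 in the wild-type jejunum. All jejunal arrays were lower, but replicate 1 stood apart from the other two. The difference was -2.3 ± 0.674 (4.94-fold, adjusted p = 0.0234), and -1.29 without wild-type jejunum replicate 1 (adjusted p = 0.0917). The call was also lost without wild-type ileum replicate 2 (0.0768) or replicate 3 (0.06). Noxo1, the organizer, was at 7.88, 7.73 and 7.65 in the ileum and at 6.88, 6.83 and 6.84 in the jejunum. Its difference of -0.9 ± 0.113 (1.87-fold, adjusted p = 3.46e-05) was smaller and its jejunal arrays lay within 0.05 of each other.

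**Figure D1:**
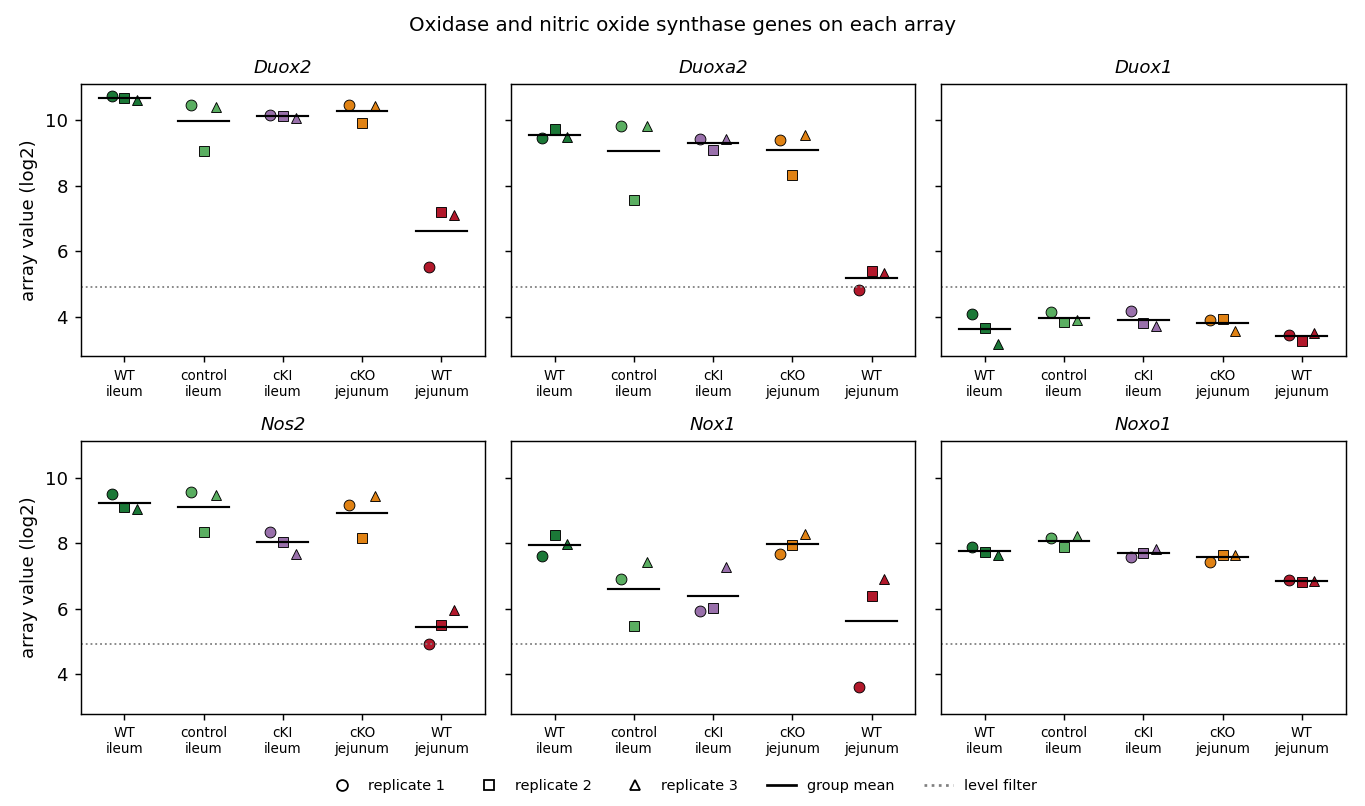
Log2 array values (vertical axis) of the 6 genes in the 5 groups (horizontal axis), with 1 symbol per array, a bar at the group mean and a dotted line at the level filter of 4.91. Duox2, Duoxa2 and Nos2 are low in the wild-type jejunum alone among the groups, Nox1 has 1 jejunal array at 3.62, and Duox1 lies below the filter throughout.

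On the arrays labelled cKO jejunum all 5 tested members were higher than in the wild-type jejunum. The comparison asks what loss of Gata4 does to the jejunum, with the reservation on the label given above. No jejunal control of the cKO set is labelled. An effect of Gata4 loss therefore cannot be told apart from other differences between these mice and the wild-type CD1 mice. A like limit holds for the other comparisons of cKO or cKI arrays with wild-type CD1 arrays. Between the control and the wild-type ileum 27.9% of all genes tested were called. Between the cKO and the wild-type jejunum 5.17% of all genes tested were called higher and 12.8% in either direction. The median difference of the 5 members was 3.45, beside -0.03 over all genes tested. The regional comparison and this one share the wild-type jejunal arrays, so their values are side by side and not independent.

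Duox2 was at 10.46, 9.9 and 10.43 on these arrays, and each exceeded the highest wild-type jejunal array by over 2 log2 units. The difference was 3.66 ± 0.392 (12.7-fold, adjusted p = 2.1e-05). Duoxa2 was at 9.38, 8.32 and 9.54, higher by 3.9 ± 0.462 (15-fold, adjusted p = 5.21e-05). Nos2 was at 9.15, 8.16 and 9.43, higher by 3.45 ± 0.36 (11-fold, adjusted p = 1.65e-05). By size among the genes higher on the cKO arrays, Duoxa2 ranked 8, Duox2 ranked 9 and Nos2 ranked 10. Replicate 2 was the lowest of the 3 arrays for each of these genes, yet lay above all wild-type jejunal arrays.

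Nox1 was at 7.68, 7.94 and 8.29 on the arrays labelled cKO, higher by 2.33 ± 0.674 (5.03-fold, adjusted p = 0.0332). Without wild-type jejunum replicate 1 the difference was 1.32 (adjusted p = 0.12). The call was lost as well without cKO jejunum replicate 1 (0.0545), replicate 2 (0.0826) or replicate 3 (0.0837). Noxo1 was at 7.43, 7.65 and 7.63, higher by 0.72 ± 0.113 (1.65-fold, adjusted p = 0.000559). It did not overlap the wild-type jejunal arrays.

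Against the wild-type ileum, none of the 5 members was called on the arrays labelled cKO jejunum by limma, and 0 had an unadjusted p below 0.05. Of all 11784 genes tested 5.1% were called (3.26% higher and 1.84% lower), and 2322 had an unadjusted p below 0.05. The differences and their 95% intervals were -0.4 (-1.24 to 0.44) for Duox2 and -0.47 (-1.46 to 0.52) for Duoxa2. They were -0.3 (-1.06 to 0.47) for Nos2, 0.03 (-1.41 to 1.47) for Nox1 and -0.18 (-0.42 to 0.06) for Noxo1. Duox2 alone of the 5 had arrays that did not overlap, the cKO ones all being lower than the ileal ones. How large a share of all genes tested had no overlap is not given here. The intervals leave room for differences of over 2-fold in Duox2, Duoxa2, Nos2 and Nox1, so equal levels were not shown.

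Duox2 and Duoxa2 in the cKI ileum lay within the range of the control ileum, and no tested member passed the test. Set against the control ileum, it addresses the effect of added Gata4 in a region that normally has little. Of the 5 tested members none was called by limma, beside 0.764% of all genes tested (0.339% higher and 0.424% lower). An unadjusted p below 0.05 was found for 2 members (Nos2 and Noxo1) and for 1804 of all 11784 genes tested. Duox2 was at 10.16, 10.13 and 10.07 in the cKI ileum and at 10.46, 9.05 and 10.38 in the control ileum. The cKI arrays lay between the control arrays, with a difference of 0.16 ± 0.392 (95% interval -0.68 to 0.99, adjusted p = 0.887). Duoxa2 was at 9.42, 9.09 and 9.41 in the cKI and at 9.81, 7.57 and 9.81 in the control ileum (0.24 ± 0.462, interval -0.74 to 1.23, adjusted p = 0.841). The low control array set the sign: without control ileum replicate 2 the differences were -0.3 for Duox2 and -0.5 for Duoxa2, still not called.

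Nos2 was at 8.34, 8.05 and 7.67 in the cKI ileum and at 9.55, 8.33 and 9.47 in the control ileum. Only the lowest control array overlapped the cKI arrays. The difference was -1.09 ± 0.36 (interval -1.86 to -0.33) and was not called (adjusted p = 0.181), or -1.49 without control ileum replicate 2. Noxo1 was at 7.59, 7.7 and 7.82 in the cKI and at 8.15, 7.87 and 8.21 in the control ileum. The arrays did not overlap, but the difference of -0.38 ± 0.113 was not called (adjusted p = 0.146). Nos2 and Noxo1 were called with array weights, which give discordant arrays less influence (adjusted p = 0.0361 and 0.00925), in a fit that called 766 genes against 90. Nox1 was at 5.92, 6.02 and 7.26 in the cKI and at 6.9, 5.48 and 7.42 in the control ileum, with a difference of -0.2 ± 0.674 (interval -1.64 to 1.24, adjusted p = 0.92). Its sign was turned by leaving out 1 array, to 0.22 when control replicate 3 was dropped and to 0.04 when cKI replicate 1 was.

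Markers of other cells also differed between the cKI and the control ileum. Over all 11784 genes tested, 0.424% were called lower there and 1804 had an unadjusted p below 0.05 in either direction. Of 8 tested T and NK cell genes 0 were called by limma, but all 8 had an unadjusted p below 0.05, with a median difference of -1.18, and array means were 4.57 to 5.62 in the cKI against 5.71 to 6.43 in the control ileum. Of 12 stromal genes 2 were called lower, Pdgfrb (-0.78) and Vim (-1.05), with a median of -0.81. Of 9 B and plasma cell genes 1 was called lower, Jchain (-2.45), and of 8 goblet cell genes 1, Clca1 (-0.74). Of 10 myeloid genes 0 were called, with 2 at an unadjusted p below 0.05 and a median of -0.3. The part of these cells in the Nos2 and Noxo1 values was not tested.

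The direct comparison of the cKI ileum with the wild-type jejunum gave 4 members called higher, where 25.5% of all genes tested were higher and 41.8% were called in either direction. It shares its arrays with the comparisons above. The differences were 3.52 ± 0.392 for Duox2 (11.4-fold, adjusted p = 1.04e-05) and 4.13 ± 0.462 for Duoxa2 (17.6-fold, adjusted p = 1.07e-05). They were 2.56 ± 0.36 for Nos2 (5.9-fold, adjusted p = 7.02e-05) and 0.86 ± 0.113 for Noxo1 (1.81-fold, adjusted p = 4.16e-05). For Nox1, whose arrays overlapped, it was 0.76 ± 0.674 (interval -0.68 to 2.2, adjusted p = 0.388), and -0.25 without wild-type jejunum replicate 1. Whether the cKI change differed from the regional one was not tested for any member.

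**Figure D2:**
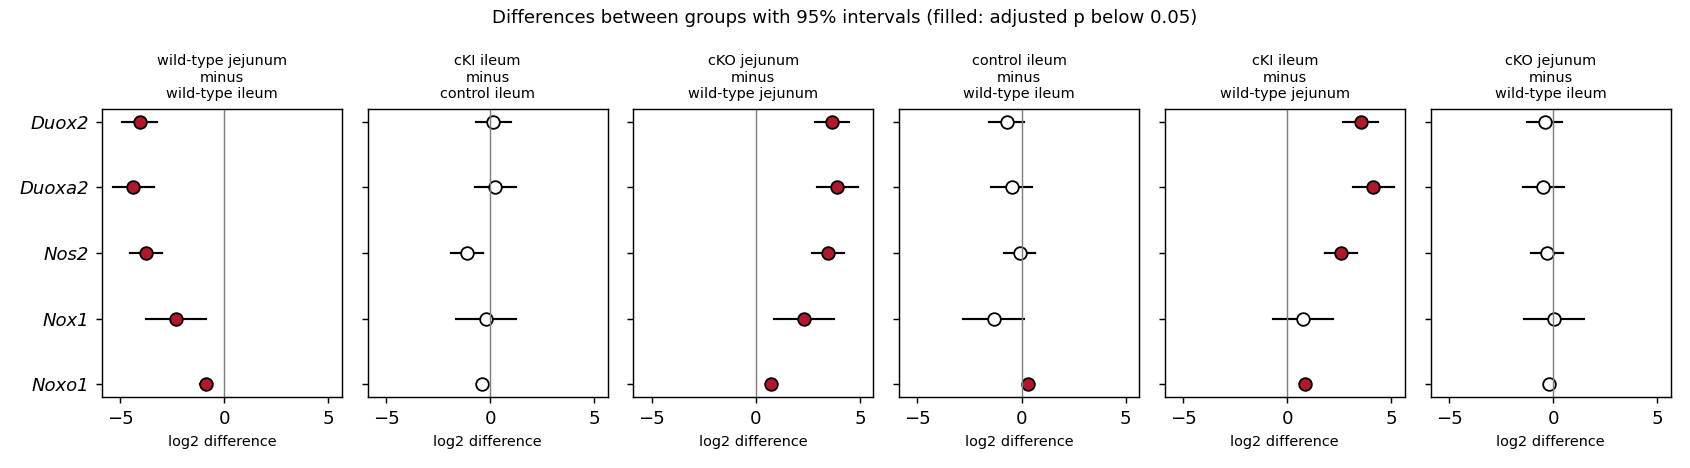
Log2 differences (horizontal axis) of the 5 tested genes in the 6 comparisons, as points with 95% intervals from limma, filled where the adjusted p is below 0.05. The differences from the wild-type jejunum are filled for all genes but Nox1 of the cKI ileum, while no point is filled for the cKI against the control ileum or for the cKO jejunum against the wild-type ileum.

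The control ileum and the wild-type ileum differed in 27.9% of all genes tested (19.3% higher and 8.61% lower in the control), and the labels do not give the strain or genotype behind the word control. Of the members 1 of 5 was called, Noxo1, higher in the control ileum by 0.33 ± 0.113 (adjusted p = 0.0428). That call was lost in 10 of 15 alternatives, among them each array centred on its median (difference 0.27, adjusted p = 0.127) and quantile normalization (0.21, 0.158). It was lost too without wild-type ileum replicate 2 (0.104) or replicate 3 (0.143), or without control ileum replicate 1 (0.118) or replicate 3 (0.16). Differences of the others were -0.7 (interval -1.54 to 0.13) for Duox2, -0.48 (-1.47 to 0.5) for Duoxa2, -0.09 (-0.86 to 0.67) for Nos2 and -1.34 (-2.79 to 0.1) for Nox1. Without control ileum replicate 2 these moved to -0.25 for Duox2, 0.26 for Duoxa2, 0.3 for Nos2 and -0.78 for Nox1. Duox2 and Nox1 had every control array below every wild-type ileal array, but neither was called by limma (adjusted p = 0.2 and 0.153). The share of all genes tested with arrays separated in this way is not given here.

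The order of group means was alike for the DUOX2 genes at its foot. For Duox2 it was wild-type ileum (10.67 ± 0.07, SD), cKO jejunum (10.27 ± 0.31), cKI ileum (10.12 ± 0.05), control ileum (9.96 ± 0.79) and wild-type jejunum (6.6 ± 0.94). The middle 3 groups overlapped from neighbour to neighbour, while the first and the last stood clear of theirs. For Duoxa2 it was 9.55 ± 0.15, 9.31 ± 0.19 in the cKI ileum, 9.08 ± 0.66 in the cKO jejunum, 9.06 ± 1.29 in the control ileum and 5.17 ± 0.32 in the wild-type jejunum. Here the wild-type jejunum was separate and the cKI arrays lay just below those of the wild-type ileum, without overlap.

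For Nos2 the order was wild-type ileum (9.21 ± 0.25), control ileum (9.11 ± 0.68), cKO jejunum (8.91 ± 0.67), cKI ileum (8.02 ± 0.33) and wild-type jejunum (5.46 ± 0.51), with overlap between all neighbours except the last. For Nox1 it was cKO jejunum (7.97 ± 0.3), wild-type ileum (7.94 ± 0.33), control ileum (6.6 ± 1.01), cKI ileum (6.4 ± 0.74) and wild-type jejunum (5.64 ± 1.77). Neighbours overlapped there except the wild-type and the control ileum. For Noxo1 it was control ileum (8.08 ± 0.18), wild-type ileum (7.75 ± 0.12), cKI ileum (7.7 ± 0.11), cKO jejunum (7.57 ± 0.12) and wild-type jejunum (6.85 ± 0.03), with only the last separate from its neighbour.

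Within groups, single arrays were low for several members at once. Control ileum replicate 2 was the lowest control array for all 5 tested members, with Duoxa2 at 7.57 against 9.81 on both other arrays. Wild-type jejunum replicate 1 was the lowest of its group for 4 of them, Duox2, Duoxa2, Nos2 and Nox1, but not for Noxo1. Replicate 2 of the cKO jejunum was lowest for Duox2, Duoxa2 and Nos2. On control ileum replicate 2 the mean level of the stromal markers was 6.56, against 5.51 and 5.87 on the other control arrays, and that of B and plasma cell markers was 6.65, against 5.11 and 6.5. The T and NK cell mean was 6.43, against 5.71 and 6.18, and the myeloid mean was 5.35, against 4.95 and 5.19. Each of these 4 lists was thus highest on that array. The epithelial markers were at 10.83 there, against 10.82 and 10.81. On wild-type jejunum replicate 1 the T and NK cell mean was 5.97, against 5.52 and 5.4, the Paneth cell mean was 9.99, against 9.53 and 9.41, and the myeloid mean was 4.92, against 4.74 and 4.83. The stromal mean was 4.62 there, against 4.57 and 4.81, and that of B and plasma cells was 4.7, against 4.92 and 4.73. The part of these cells in the low arrays was not tested.

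**Figure D3:**
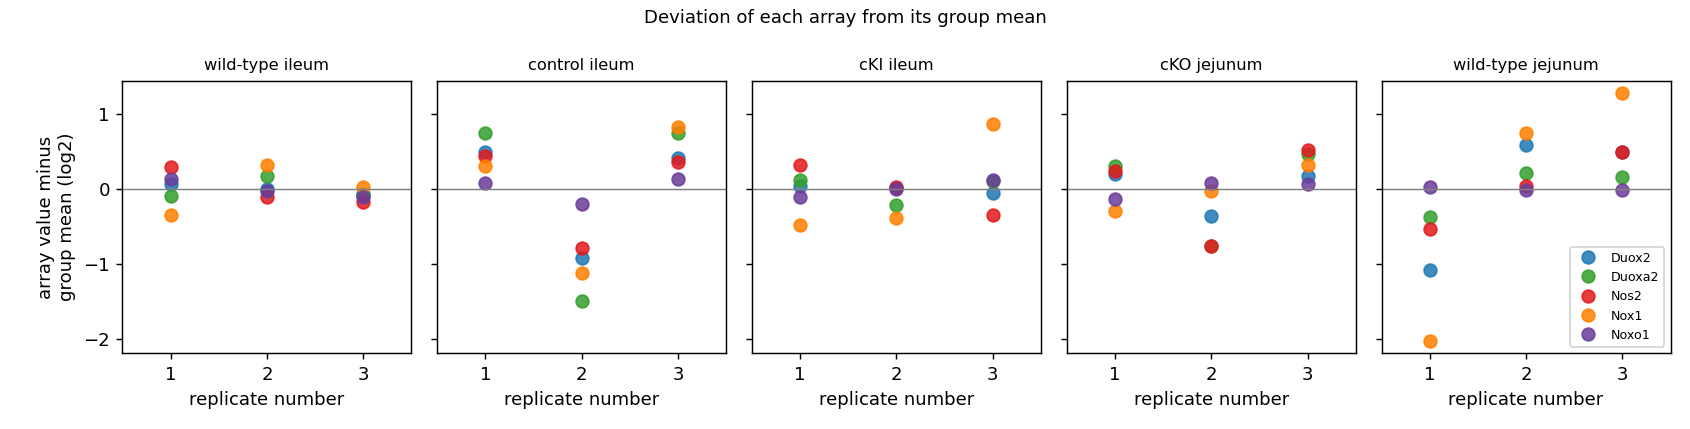
Array value minus the mean of its group (vertical axis, log2) for the 5 tested genes by replicate number (horizontal axis), 1 panel per group. All 5 genes lie below their mean on control ileum replicate 2, and Duox2, Duoxa2, Nos2 and Nox1 lie below it on wild-type jejunum replicate 1.

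Markers of some other cells also differed between the regions. Nos2 is also made by phagocytes, so the myeloid list is given beside it. The mean level of this list per array ran from 4.87 to 5.12 in the wild-type ileum and from 4.74 to 4.92 in the wild-type jejunum. On the arrays labelled cKO it ran from 4.91 to 4.94. Over all genes tested, 7.91% were called lower in the jejunum and 5.17% higher on the cKO arrays. In the jejunum 2 of 10 tested myeloid genes were lower, Cd14 (-1.13) and Itgam (-1.38), and on the cKO arrays 1 of 10 was higher, Cd14 (0.99). The 10 genes had a median difference of -0.07 in the jejunum and -0.02 on the cKO arrays. Not all were lower in the jejunum: Fcer1g (0.39) and Cd68 (0.31) had higher means there, and neither was called. Of the 16 listed myeloid genes, 4 had a mean above the filter in the wild-type ileum, 6 in the wild-type jejunum and 4 on the cKO arrays. Lyz2, a lysozyme of myeloid cells, had means of 8.7, 8.22 and 8.16 in these groups and Itgam, an integrin chain of myeloid cells, had means of 7.14, 5.76 and 6.26. Adgre1, Itgax, Fcgr3, C1qc, Ly6g and Csf3r were below the filter in every group.

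For the counts below, the shares over all genes tested were again 7.91% lower in the jejunum and 5.17% higher on the cKO arrays. Goblet cell markers were lower in the jejunum for 7 of 8 genes and higher on the cKO arrays for 5 of 8. Their array means were 10.92 to 11.04 in the wild-type ileum, 10.05 to 10.24 in the wild-type jejunum and 10.55 to 10.56 on the cKO arrays. Stromal markers were lower in the jejunum for 8 of 12 genes, with array means of 5.31 to 5.67 in the ileum and 4.57 to 4.81 in the jejunum, and on the cKO arrays 1 of 12 was higher (4.87 to 5.11). The part of these cells in the member values was not tested.

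Of 8 tested partners 3 were lower in the jejunum and none was higher, beside 7.91% lower and 13.4% higher over all genes tested. Noxa1, the activator of NOX1, was at 7.11, 7.64 and 7.51 in the ileum and at 5.65, 6.34 and 6.88 in the jejunum (-1.13 ± 0.287, adjusted p = 0.0103, or 0.0569 without wild-type jejunum replicate 1). Cyba, which encodes p22phox, differed by -0.79 ± 0.264 (adjusted p = 0.0442). That call was lost without wild-type jejunum replicate 1 (-0.39, adjusted p = 0.185) and without wild-type ileum replicate 1 (0.0903), replicate 2 (0.0761) or replicate 3 (0.125). It was lost too with no filter on low values (0.0597) and when only the 6 arrays of the comparison were fitted (0.088). Hvcn1, a proton channel that supports oxidase activity, differed by -0.73 ± 0.247 (adjusted p = 0.0471). It passed the level filter only through the wild-type ileum, where its mean was 4.96 against 4.22 in the wild-type jejunum. Its place in the count of 3 thus rests on the group where it is high. With no filter on low values the Hvcn1 call was lost (adjusted p = 0.064). Its call was lost when 1 of 5 arrays was left out: ileal replicate 1 (0.0506) or 3 (0.117), or jejunal replicate 1 (0.134), 2 (0.0542) or 3 (0.125) of the wild type. Without ileal replicate 2 it did not pass the level filter.

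On the arrays labelled cKO jejunum 0 of 8 oxidase partners were called against the wild-type jejunum by limma, with 1 at an unadjusted p below 0.05. Of all genes tested 12.8% were called on these cKO arrays. Noxa1 was at 6.29, 6.8 and 7.02 there (0.41 ± 0.287, adjusted p = 0.406) and Cyba at 8.09, 7.8 and 8.21 (0.57 ± 0.264, adjusted p = 0.194). In the cKI against the control ileum 0 of 8 were called, with 2 at an unadjusted p below 0.05. Of all 11784 genes tested 0.764% were called there, and 1804 had an unadjusted p below 0.05. Against the wild-type jejunum 3 of 8 were higher in the cKI ileum, where 25.5% of all genes tested were called higher. Cyba led them (1.48 ± 0.264, adjusted p = 0.000491). Cyba was also higher in the control than in the wild-type ileum, by 0.84 ± 0.264 (adjusted p = 0.027). That call was lost after quantile normalization (0.051) and when wild-type replicate 1 (0.0662) or 2 (0.0799) or control replicate 2 (0.0975) or 3 (0.0684) was left out.

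Among the genes around nitric oxide and arginine, Ddah1 and Arg2 stood out. Ddah1 encodes an enzyme that breaks down methylarginines, which are natural inhibitors of nitric oxide synthases. It was at 9.48, 9.57 and 9.67 in the wild-type ileum and at 5.67, 5.48 and 4.81 in the wild-type jejunum, a difference of -4.26 ± 0.239 (19.1-fold, adjusted p = 1.33e-08). On the arrays labelled cKO it was at 8.55, 8.4 and 8.77, higher than in the wild-type jejunum by 3.25 ± 0.239 (9.54-fold, adjusted p = 6.16e-07). In the cKI ileum it was at 9.04, 8.63 and 8.65 against 9.95, 9.14 and 10.11 in the control ileum, which did not overlap, but was not called (-0.96 ± 0.239, adjusted p = 0.0878).

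Arg2, an arginase that uses the same substrate as the synthases, went the other way. It was at 8.29, 7.69 and 8.35 in the wild-type ileum and at 10.93, 10.89 and 10.71 in the wild-type jejunum, higher there by 2.73 ± 0.275 (adjusted p = 4.51e-06). On the arrays labelled cKO it was at 9.51, 8.76 and 9.1, lower than in the wild-type jejunum by a difference of -1.72 ± 0.275 (adjusted p = 0.000682). The control ileum had more Arg2 than the wild-type ileum, by 1.6 ± 0.275 (adjusted p = 0.000706). In that list of 12 tested genes, 1 was higher and 2 were lower in the jejunum, and 3 were higher and 1 was lower on the cKO arrays. Of all genes tested 13.4% were higher and 7.91% lower in the jejunum, and 5.17% were higher and 7.65% lower on the cKO arrays. In the cKI against the control ileum 0 of 12 were called by limma, with 4 at an unadjusted p below 0.05. Over all 11784 genes tested, 0.764% were called there and 1804 had an unadjusted p below 0.05.

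Genes that remove peroxide and superoxide were called in both directions. Of 21 tested, 7 were higher and 2 lower in the wild-type jejunum, and 3 were higher and 3 lower on the cKO arrays. The shares of all genes tested called in either direction were 21.3% for the regions and 12.8% for the cKO arrays. Cat, which encodes catalase, and Gpx1, a glutathione peroxidase found in most cells, were higher in the jejunum by 1.74 ± 0.179 and 1.01 ± 0.116 (adjusted p = 5.7e-06 and 1.52e-05). Gpx2, the glutathione peroxidase of gut epithelium, was at 11.57, 11.77 and 11.57 in the ileum and at 10.65, 10.89 and 10.57 in the jejunum (-0.93 ± 0.177, adjusted p = 0.0013). On the cKO arrays Gpx2 was at 11.78, 11.35 and 11.75, higher than in the wild-type jejunum by 0.92 ± 0.177 (adjusted p = 0.00265), and Gpx1 was lower by a difference of -0.79 ± 0.116 (adjusted p = 0.000351). Gsr, which regenerates glutathione, was higher there by 0.94 ± 0.18 (adjusted p = 0.00268). In the cKI against the control ileum 1 of 21 was called, Gpx1, higher by 0.53 ± 0.116 (adjusted p = 0.05 after rounding). Of all genes tested 0.764% were called there. With the replicate number as a block the Gpx1 value was 0.0595, and it was above 0.05 without any 1 of the 6 arrays, from 0.0794 without control ileum replicate 1 to 0.184 without cKI ileum replicate 3.

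**Figure D4:**
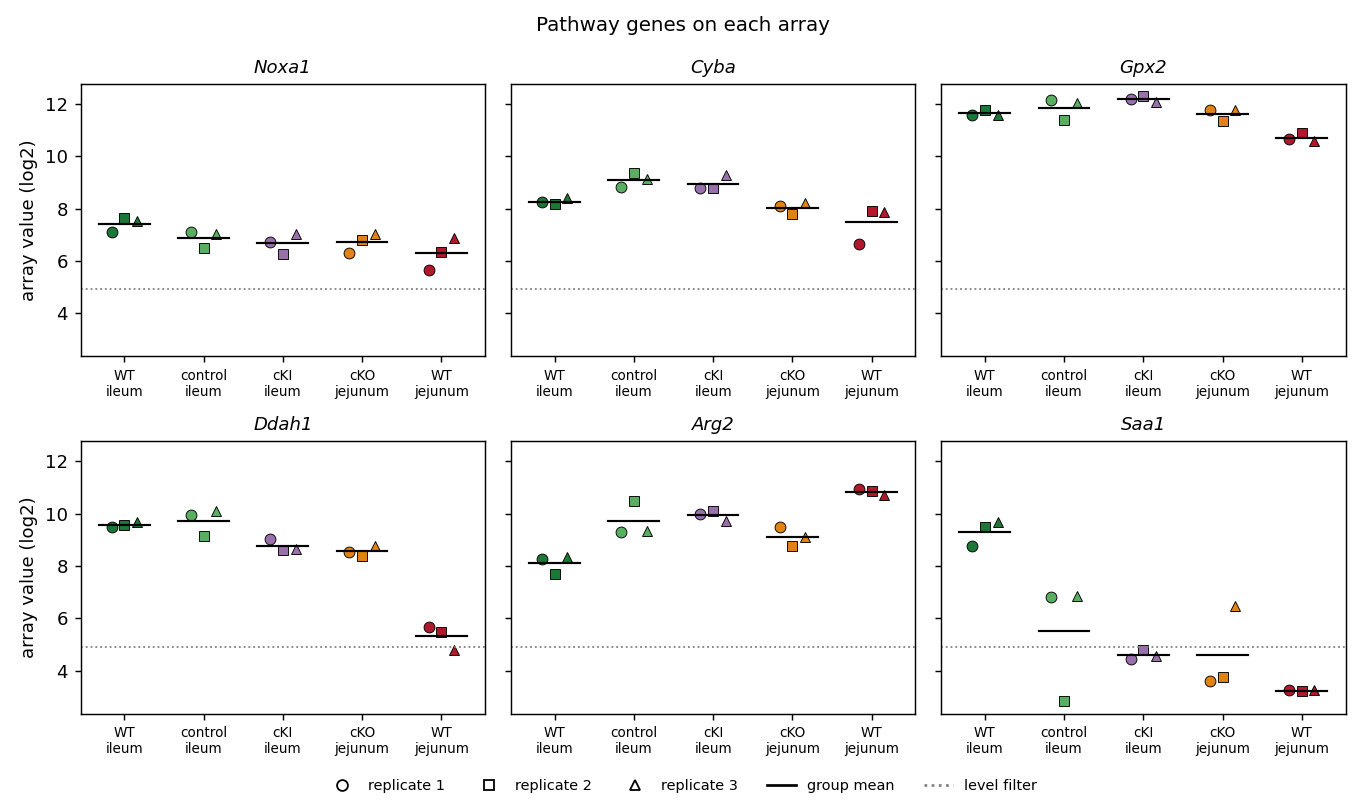
Log2 array values (vertical axis) of 6 genes of the oxidant and defence lists in the 5 groups (horizontal axis), drawn as in the plot of the members by array. Ddah1 and Gpx2 are lowest in the wild-type jejunum, Arg2 is highest there, and Saa1 is above 8 in the wild-type ileum alone.

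Receptors and signalling genes upstream of Duox2 and Nos2 showed small differences in both directions. Of 29 tested, 3 were higher and 5 lower in the wild-type jejunum, and 3 were higher and 1 lower on the cKO arrays. Over all genes tested, 21.3% were called between the regions and 12.8% on the cKO arrays, in either direction. Nod1, a sensor of bacterial peptidoglycan, was lower in the jejunum (-0.73 ± 0.129, adjusted p = 0.000751) and higher on the cKO arrays (0.7 ± 0.129, adjusted p = 0.00219). Il10rb, a chain of the receptors for interleukins 10 and 22, had higher jejunal values (0.8 ± 0.129, adjusted p = 0.000338) and was lower on the cKO arrays by a difference of -0.67 ± 0.129 (adjusted p = 0.00271). Il17rc, a chain of the interleukin 17 receptor, was lower in the jejunum (-0.55 ± 0.107, adjusted p = 0.00161). In the cKI against the control ileum 0 of 29 were called by limma, with 8 at an unadjusted p below 0.05. Over all 11784 genes tested, 0.764% were called there and 1804 had an unadjusted p below 0.05.

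Of 16 tested defence genes that epithelium makes in contact with microbes, 1 was higher and 2 lower in the jejunum, while 0 were called on the cKO arrays by limma, with 5 at an unadjusted p below 0.05. In the cKI against the control ileum 0 were called, with 1 at an unadjusted p below 0.05. Over all 11784 genes tested, 21.3% were called between the regions and 12.8% on the cKO arrays, where 3009 had an unadjusted p below 0.05. For the cKI against the control ileum the share called was 0.764%, and 1804 had an unadjusted p below 0.05. The 2 called lower in the jejunum were Saa1 (-6.08 ± 0.869) and Fut2 (-3.87 ± 1.06), whose arrays are given under other observations. The 1 called higher was Nlrp6 (0.49 ± 0.126). The lectins Reg3b and Reg3g, which bind bacteria, differed between jejunum and ileum by -0.35 ± 0.195 and -0.51 ± 0.229 (adjusted p = 0.245 and 0.141). On the cKO arrays they differed from the wild-type jejunum by 0.01 ± 0.195 and 0.18 ± 0.229 (adjusted p = 0.984 and 0.686).

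The genes with the most similar profiles were found by the root-mean-square difference over the 15 arrays, after each gene was centred on its own mean. For Duox2 they were Duoxa2 (0.4), Mgat4c (0.44), Mboat1 (0.48), Nos2 (0.5) and Scd2 (0.64), so 2 other members were among the nearest 5 of all tested genes. For Duoxa2 they were Duox2 (0.4), Mgat4c (0.57), Ddah1 (0.62), Nos2 (0.62) and Mboat1 (0.63). For Nos2 they were Mgat4c (0.47), Mboat1 (0.48), Duox2 (0.5), Lpcat4 (0.57) and Sqor (0.57). Mgat4c is a glycosyltransferase, Mboat1 and Lpcat4 are lysophospholipid acyltransferases, Scd2 is a fatty acid desaturase and Sqor oxidises sulfide in mitochondria.

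Nox1 and Noxo1 did not have each other or the DUOX2 genes among their nearest 5. For Nox1 those were Slc40a1, the iron exporter ferroportin (0.7), Trp53i11 (0.75), the integrin Itga2 (0.81), Itih5 (0.82) and Tspan12 (0.83), and Noxo1 ranked 538. For Noxo1, whose SD over the 15 arrays was 0.43 against 1.26 for Nox1, they were the sterol regulator Srebf2 (0.07), the keratin Krt18 (0.13), Gm1123 (0.15), Xylt2 (0.15) and Elapor1 (0.16). The measure depends on the size of a change as well as its shape, and describes these arrays only.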

How the data were processed

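The deposited table holds 1 log2 value for each of 35556 transcript clusters and 15 arrays, which the authors made in Partek per the submitters' processing notes. The log2 scale was inferred from how far the values reach. Background correction, normalization and summarization are not given in the sources used here. Clusters with exactly 1 gene symbol, 21789 of them, were named through the platform annotation (1621 had several symbols and 12146 none), and a symbol with several clusters took the one with the highest mean. The 6 member symbols had 1 cluster each. Genes with a largest group mean above 4.91 were tested, 11784 in all. Group means over the 15 arrays were estimated together by lmFit and eBayes of limma 3.58.1 under R 4.3.3 (two-sided, Benjamini-Hochberg, threshold 0.05). Errors after ± are standard errors of differences, or SDs of n = 3 where stated. The number of arrays limits the precision. The steps were tested on simulated data.

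The members and the gene lists were chosen with earlier results of these data known. Named are all members, up to 4 called genes of each pathway list by smallest p, further list genes chosen after their values were seen (Nos1, Nos3, Duoxa1, Reg3b, Reg3g, Cd14, Itgam and Lyz2 among them), and the 5 nearest genes by profile. The pathway lists and those for myeloid, T and NK, B and plasma, stromal, goblet, Paneth and epithelial cells were counted by called genes. Of 8 tested T and NK genes 0 were called by limma between the wild-type regions, and of 5 Paneth genes 1 was lower in the jejunum. B and plasma genes were lower there for 3 of 9. Of all genes tested 7.91% were lower in the jejunum. Arrays of equal replicate number, after removal of group means, correlated across genes by 0.334, 0.216 and 0.161 in the wild-type regions. In cKI and control ileum the values were 0.128, 0.177 and 0.258, so all exceeded a limit of 0.1. In the other comparisons at least 1 pair fell below that limit. Yet cKO jejunum and wild-type ileum, from mice of different genotype, gave 0.474 and 0.257 for replicates 1 and 2. Arrays of unequal number were not compared and the labels give no pairing. These correlations therefore do not show that the numbers pair arrays.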

Additional observations from a re-analysis of the deposited data

How the results depend on the processing

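Of 450 combinations of a tested member's difference and an alternative, 415 kept their direction and their side of the threshold. Duox2, Duoxa2, Nos2 and Noxo1 kept their calls against the wild-type jejunum in all alternatives run, and the exceptions lay with Nox1, Noxo1 in the control ileum and uncalled differences. The wild-type regional calls numbered 2507 genes, and 3967 with array weights. For the cKI against the control ileum 90 genes were called, but 52 with no filter on low values, 766 with array weights and 21 from the 6 arrays alone, and members called went from 0 to 2 with array weights. For control against wild-type ileum the member calls fell from 1 to 0 with no filter, quantile normalization, median centring, either replicate block and the 6 arrays alone, and all genes from 3290 to 2109 with the replicate block in the 6 arrays (an alternative chosen after seeing the data). For the cKO jejunum against the wild-type ileum 601 genes became 300 in the 6 arrays alone. In the 6 arrays alone Nox1 of the cKO against the wild-type jejunum had an adjusted p of 0.0803.

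Leaving out 1 array of a comparison gave 1813 to 2377 genes and 4 to 5 members for the wild-type regions, 20 to 192 and 0 to 0 for cKI against control, and 990 to 1557 and 4 to 5 for cKO against wild-type jejunum. It gave 2425 to 2837 genes and 0 to 1 members for control against wild-type ileum, 3880 to 4631 and 4 to 4 for cKI ileum against wild-type jejunum, and 283 to 592 and 0 to 0 for cKO jejunum against wild-type ileum. Counts moved by over 1.5 times for cKI against control without control replicate 1 (192), 2 (40) or 3 (39) or cKI replicate 1 (20) or 3 (38), for cKO against wild-type jejunum without wild-type replicate 1 (990) or 2 (999), and for cKO against wild-type ileum without ileal replicate 2 (283) or 3 (371).

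Signs turned only in uncalled differences. With array weights the cKI minus control difference was -0.04 for Duox2 and -0.1 for Duoxa2, and control minus wild-type ileum was 0.17 for Nos2. With quantile normalization cKO jejunum minus wild-type ileum was -0.01 for Nox1. Leaving out 1 array gave, for cKI minus control, -0.3 to 0.41 (Duox2), -0.5 to 0.62 (Duoxa2) and -0.76 to 0.22 (Nox1). For control minus wild-type ileum it gave -0.86 to 0.26 (Duoxa2) and -0.31 to 0.3 (Nos2), for cKI ileum minus wild-type jejunum -0.25 to 1.4 (Nox1), and for cKO jejunum minus wild-type ileum -0.55 to 0.08 (Nos2) and -0.15 to 0.19 (Nox1). The replicate block changed no member's call in the comparisons whose equal-numbered arrays all correlated above 0.1. In the control against wild-type ileum it gave Noxo1 an adjusted p of 0.0582. The cause of these changes was not tested.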

Other observations

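Saa1, a serum amyloid A induced in epithelium by microbes, was at 8.78, 9.51 and 9.68 in the wild-type ileum and at 3.25, 3.22 and 3.27 in the wild-type jejunum (difference -6.08 ± 0.869, adjusted p = 0.000121 from limma). It was at 6.82, 2.84 and 6.86 in the control ileum, where replicate 2 is also the lowest array for Duox2, Duoxa2, Nos2, Nox1 and Noxo1. On the arrays labelled cKO jejunum it was at 3.62, 3.75 and 6.49, which did not pass the test against the wild-type jejunum (1.38 ± 0.869, adjusted p = 0.355) and was lower than in the wild-type ileum by a difference of -4.7 ± 0.869 (adjusted p = 0.00581).

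Fut2, a fucosyltransferase of the gut surface, was at 8.15, 9.4 and 9.98 in the wild-type ileum and at 4.51, 5.71 and 5.7 in the wild-type jejunum, lower there by a difference of -3.87 ± 1.06 (adjusted p = 0.0164). That call was lost without wild-type ileum replicate 2 (0.051) or 3 (0.0655) or wild-type jejunum replicate 1 (0.0692). Fut2 was at 10.38, 10.25 and 8.26 in the cKI ileum, higher than in the wild-type jejunum by 4.32 ± 1.06 (adjusted p = 0.00474). It was at 10.34, 5.38 and 8.02 in the control ileum, again lowest on replicate 2, and the cKI ileum did not pass the test against it (1.72 ± 1.06, adjusted p = 0.464). On the cKO arrays it was at 6.97, 7.07 and 10.2, which did not pass the test against the wild-type jejunum (2.77 ± 1.06, adjusted p = 0.108).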
